A study of Mus musculus with 6 samples.

Results

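The assembly of RNA from mouse pancreatic islets held 39470 loci, and in 115 of them every transcript had class code i, the mark of an assembled transcript that lies wholly within an intron of an annotated one. The 110 of these with 60 or more counts over the 6 libraries are described here as new intronic loci. Each is set beside its host, the smallest locus with a transcript of class code = or j (a full match, or a match with a shared splice junction) whose span contains it. Host symbols were inferred from exon and intron lengths. The 5 loci left out held 34, 39, 55, 56 and 57 counts and lay in Gm765, Gm4117, Slc5a10, Iqsec1 and Ksr2. The lowest inside were those in Snx29, Dixdc1 and Tceal3, with 62, 64 and 72 counts.

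RNA came from islets of C57BL/6 mice aged 14 weeks that had eaten a high fat diet for 8 weeks, and from islets of mice of the same strain and age on a normal diet, with 3 libraries per diet. Ribosomal RNA was removed and poly(A) selection was left out. The deposited columns abbreviate the diets, and HDR was read as the high fat diet by its name, so every direction below depends on that reading. Whether each library came from its own animals is not in the labels, so a p-value here reflects spread among the libraries sequenced, some of which may be technical.

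Introns are the parts of a gene that are copied into the primary transcript and then removed by splicing. Without poly(A) selection, unspliced and tailless RNA is sequenced along with mature messenger RNA, and a run of reads inside an intron is assembled as a locus of its own when it does not join a known exon. Such a run can be read from the host's precursor, from a retained or late-removed stretch, or from a separate transcript in the intron, and the count alone is the same quantity in each case.

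Libraries held between 104657337 and 135353777 counted reads. The summed level of the matched beta cell markers (8 of 10) was 84420 to 103800 CPM in high fat islets and 58580 to 68870 CPM in normal diet islets, where CPM is the count scaled to library size after TMM normalisation, with Nkx6-1 and Slc2a2 listed at 0. Markers of the enzyme-secreting acinar cells around islets (13 of 13 matched, none at 0) summed to 4795, 10240 and 7921 CPM in high fat libraries 1 to 3, and to 3242, 6287 and 5498 CPM in normal diet libraries 1 to 3. Alpha cell markers (5 of 6 matched, Ttr at 0) summed to 17360 to 21020 CPM in high fat islets and 22140 to 24450 CPM in normal diet islets, and the delta cell marker Hhex stood at 5.15 to 8.58 CPM in high fat islets and 8.75 to 9.46 CPM in normal diet islets. Schwann cell markers (3 of 3) summed to 6.90 to 11.9 CPM in high fat islets and 13.5 to 16.0 CPM in normal diet islets. The PP cell marker Ppy and the summed duct, endothelial and myeloid markers overlapped between the diets. A marker listed at 0 is not read as absent, because all 548 loci whose exonic bases are wholly shared with other loci have a count of 0. Whether these markers are among those loci is not shown here. In bulk RNA, fewer cells of a type and less RNA per cell cannot be told apart.

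All 110 new intronic loci had 1 exon and no strand, and 105 of them held 1 transcript. Their median length was 2704 bp, from 438 bp in Reln to 51605 bp in Jazf1. Whether a locus was read from the host's strand or the opposite strand is therefore not known. The introns around them were long, with a median of 43760 bp (5148 to 707703 bp), and a locus covered a median of 6.58% of its intron. Only 4 covered 50% or more, the largest share being 88.5% in intron 1 of Carm1. Intron 1 of the containing transcript held 48 of the loci, and the last intron held 11. The median distance to the nearest host exon was 6062 bp, with 26 loci within 1 kb and 45 farther than 10 kb away.

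The 110 loci lay in 86 hosts, of which 72 were protein-coding, 6 lincRNA, 6 antisense and 2 processed transcripts. There were 67 hosts with 1 new intronic locus, 14 with 2, and 5 with 3: Klhl29, Pde4d, Pced1b, Nol4l and Dclk1. In 16 cases another new intronic locus lay within 500 bases, so that neighbouring loci may be pieces of the same stretch. None of the 110 shared exonic bases with another locus. Hosts made up 86 of the 39470 loci, and none was among the listed genes of beta cell identity (24 matched) or of exocytosis (28 matched). Of the beta cell identity loci tested, 5 of 21 stood higher in high fat islets and 2 stood lower, and of the exocytosis loci 1 of 28 was higher and 4 lower, where 5.95% of all loci were higher and 4.86% lower by the test described below. Of 30 matched long genes with neuronal-type expression, Pde4d and Kcnma1 held 5 new intronic loci between them, and of the 32 loci tested for that list 1 was higher and 2 were lower, against 10.8% of all loci in either direction.

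Levels were low. The median of the 110 was 0.640 CPM over the 6 libraries (0.0849 to 84.4 CPM), with 42 at 1 CPM or more and 11 at 5 CPM or more. The 3 most abundant loci, in Slco1a6, Ntm and Pde4d, held 52.2% of all counts in new intronic loci, and the 10 most abundant held 73.8%. Per kb of exonic length the median was 0.167 CPM per kb, against 0.921 CPM per kb for the hosts' own exons, and 75 loci lay between 0.05 and 0.3 CPM per kb. Of the 107 loci whose host held more than 3 counts, 32 stood above the host per kb, and the median locus was at 28.7% of its host. Some of the 32 have hosts with few counts or many exonic bases shared with other loci, so the host level is unsure. The host D030024E09Rik held 10 counts, and Rusc2 held 23, with 94.1% of its exonic bases shared. In Trim7 92.9% were shared. The levels of locus and host had a Spearman's rank correlation of 0.205 and Pearson's r of 0.261 on the log scale over 107 loci that share the same 6 libraries. In Pde4d, which encodes a phosphodiesterase that breaks down cyclic AMP, the locus in intron 1 stood at 58.1 CPM per kb, against 1.30 CPM per kb for the exons of the host.

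**Figure D1:**
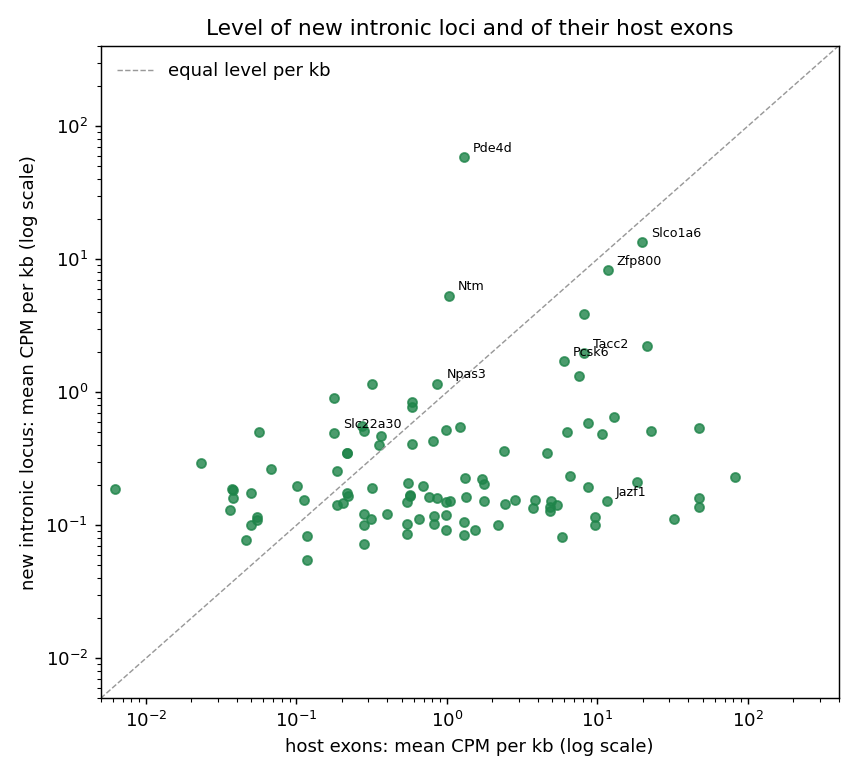
Mean level over the 6 libraries of each new intronic locus (vertical, CPM per kb, log scale) against the exons of its host (horizontal, CPM per kb, log scale), 1 point per locus for the 107 loci whose host held more than 3 counts. Most points lie between 0.05 and 0.3 CPM per kb whatever the level of the host, and 32 lie above the dashed line of equal level.

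The first comparison asked which new intronic loci differ between the diets. Loci in Tacc2, Notch1, Zbtb7c and Tnik were the lowest in high fat islets relative to normal diet islets among those past the threshold, and the locus in Slc35f4 was higher by the largest amount. In edgeR's quasi-likelihood test, adjusted by Benjamini-Hochberg across 23983 loci with a threshold of 0.05, 2 of 109 new intronic loci rose in high fat islets and 13 fell; the locus in Snx29 did not pass the filter on low counts. The share that rose was 1.83% and the share that fell was 11.9%, where 5.95% of all loci tested rose and 4.86% fell. An unadjusted p under 0.05 was found in 46 of the new intronic loci, the 15 included. No matching count over all loci is given, here or for the later unadjusted counts. None of these counts is therefore read as particular to the new intronic loci.

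The whole set leaned the same way. The log2 fold change was below 0 in 82 of 109 new intronic loci (75.2%), against 54.5% of all loci, and the median was -0.39, against -0.05 for all loci and -0.11 for the hosts. The middle of the distribution ran from -0.74 to -0.0025 between the quartiles, and the full range from -1.61 (Ntrk3, named after its value was seen, adjusted p = 0.070) to 1.59 (Slc35f4). The high fat libraries lay wholly below the normal diet libraries in 43 loci and wholly above them in 7 (39.4% and 6.42%), where 20.4% and 18.8% of all loci did so. All 15 loci past the threshold were among these. The median was 0.04 in the 11 loci at 5 CPM or more, -0.31 in the 31 from 1 to 5 CPM and -0.41 in the 67 under 1 CPM. In that order 5, 25 and 52 loci were below 0. The values over all loci were not matched to the set for level. With no filter on low counts the median was -0.13 over all loci and -0.40 in the set. With the deposited scaled values divided by library totals, the median was -0.56 in new intronic loci and -0.26 in all loci, so that the set stood below all loci under either scaling. By position, the 4 loci that cover 50% or more of their intron had a median of -0.84, and 2 of them fell. The 26 within 1 kb of a host exon had a median of -0.40 with 6 that fell, and the 44 tested farther than 10 kb from one had a median of -0.34 with 6 that fell and 2 that rose.

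These calls rested on few libraries. Without normal diet library 1, 2 or 3 none of the 15 passed in edgeR, nor did any other locus (lowest adjusted p-values among new intronic loci of 0.087, 0.065 and 0.083, and 30, 40 and 38 at an unadjusted p under 0.05); DESeq2 on all 6 libraries called 3 higher and 19 lower, and 4114 of all loci. When high fat library 1 or 2 was left out, the locus in Tacc2 alone passed (adjusted p = 0.042 and 0.045; from 3.84e-12 with DESeq2 to 0.117 with the acinar covariate over all alternatives), without high fat library 3 there were 21, and with the acinar level as a covariate there were 0 (27 at an unadjusted p under 0.05). The calls over all loci moved likewise, with 128, 86 and 5035 loci without high fat library 1, 2 or 3 and 0 with the covariate, against 2591 with all libraries.

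**Figure D2:**
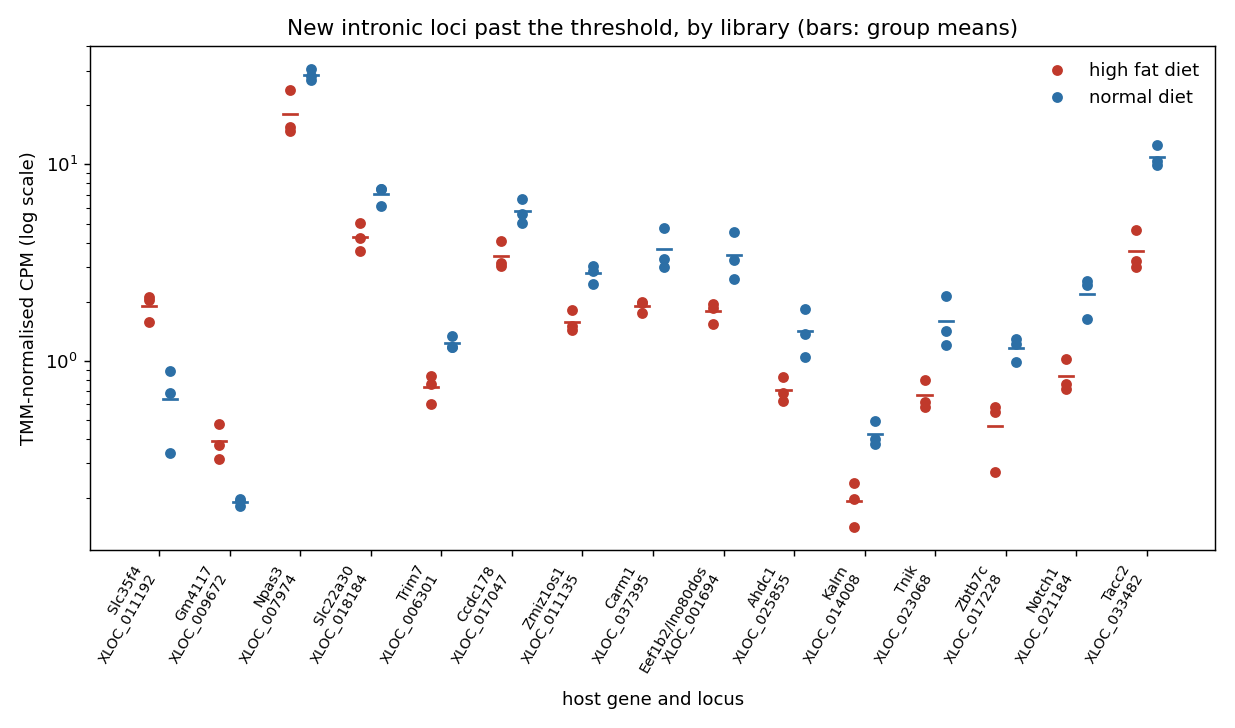
TMM-normalised CPM (vertical, log scale) of the 15 new intronic loci past the threshold in each high fat and normal diet library, named by host gene and locus, with bars at the group means (n = 3 each). In each locus the 3 high fat libraries lie on the same side of the 3 normal diet libraries, above them in Slc35f4 and Gm4117 and below them in the other 13.

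Among hosts that act in the cytoskeleton, Tacc2 encodes a coiled-coil protein of centrosomes and microtubules. Its new intronic locus (XLOC_033482, mm9 chr7:137856447-137860173) lay in intron 1 of 11, 44 bases from the nearest exon, and covered 15.7% of the intron. It had 2.98, 3.23 and 4.66 CPM in high fat libraries, against 10.4, 9.93 and 12.6 CPM in normal diet libraries. The highest high fat library was thus below the lowest normal diet library by more than the spread within either diet, and the log2 fold change was -1.59 (SE 0.193, edgeR adjusted p = 0.011). The exons of Tacc2 went the other way, with 113, 98.5 and 87.9 CPM in high fat libraries and 64.0, 69.3 and 60.9 CPM in normal diet libraries, a log2 fold change of 0.63 (edgeR adjusted p = 0.022).

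Among signalling hosts, Notch1 encodes a receptor that is cleaved on binding its ligand and carries the signal to the nucleus. Its locus (XLOC_021184, chr2:26347286-26357150) covered 60% of intron 2 of 30 and lay 251 bases from the nearest exon. It had 0.715, 1.01 and 0.763 CPM in high fat libraries, against 2.44, 1.62 and 2.53 CPM in normal diet libraries (log2 fold change -1.41, SE 0.231, edgeR adjusted p = 0.020). The groups did not overlap, and the Notch1 exons fell as well, to 31.3, 32.0 and 19.5 CPM in high fat libraries, against 45.8, 46.8 and 50.4 CPM in normal diet libraries (log2 fold change -0.79, edgeR adjusted p = 0.032). Kalrn, which encodes a guanine nucleotide exchange factor for small GTPases, held a locus in intron 1 of 58 (XLOC_014008, chr16:34433508-34434874) with 0.141, 0.197 and 0.239 CPM in high fat libraries and 0.400, 0.374 and 0.491 CPM in normal diet libraries. That locus fell by 1.13 on the log2 scale (edgeR adjusted p = 0.039), and the exons of Kalrn fell by 0.75 (edgeR adjusted p = 0.011).

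Tnik encodes a kinase of the Wnt pathway, and its locus in intron 2 of 31 (XLOC_023068, chr3:28299165-28306564), 41187 bases from the nearest exon, had 0.618, 0.580 and 0.794 CPM in high fat libraries and 2.13, 1.20 and 1.42 CPM in normal diet libraries. The locus fell by 1.25 on the log2 scale (SE 0.254, edgeR adjusted p = 0.028). Normal diet library 1 was the highest of the 6, and without it the log2 fold change was -1.0. The Tnik exons averaged 55.0 ± 5.13 CPM in high fat islets and 72.2 ± 10.2 CPM in normal diet islets, a log2 fold change of -0.39 that did not pass (edgeR adjusted p = 0.064).

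Among hosts that act on transcription and chromatin, Zbtb7c encodes a BTB and zinc finger protein. Its locus in intron 4 of 5 (XLOC_017228, chr18:76219411-76224432) had 0.547, 0.269 and 0.578 CPM in high fat libraries and 1.29, 1.22 and 0.989 CPM in normal diet libraries, and fell by 1.31 on the log2 scale (SE 0.285, edgeR adjusted p = 0.031). The exons of Zbtb7c fell by 0.82 (edgeR adjusted p = 0.030). The locus in Ahdc1, whose protein carries AT-hook motifs, lay in intron 2 of 6 (XLOC_025855, chr4:132588316-132593559) and averaged 0.710 ± 0.102 CPM in high fat islets and 1.41 ± 0.394 CPM in normal diet islets (log2 fold change -0.99, edgeR adjusted p = 0.039). Its host differed by -0.74 without passing (edgeR adjusted p = 0.13), with high fat library 3 at 6.67 CPM and the other high fat libraries at 17.5 and 15.4 CPM.

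Carm1 encodes an arginine methyltransferase that marks histones and coactivators. The locus that fills most of its intron 1 of 15 (XLOC_037395, chr9:21352049-21371718) had 1.96, 2.00 and 1.75 CPM in high fat libraries and 4.76, 3.02 and 3.29 CPM in normal diet libraries, and fell by 0.96 on the log2 scale (SE 0.198, edgeR adjusted p = 0.029). The high fat libraries lay close together and the spread was in the normal diet libraries. The Carm1 exons, of which 22.9% of bases are shared with another locus, averaged 17.3 ± 0.991 CPM in high fat islets and 19.3 ± 2.21 CPM in normal diet islets and did not pass (edgeR adjusted p = 0.37). The locus in intron 5 of 11 of Npas3 (XLOC_007974, chr12:54956309-54976581), which encodes a basic helix-loop-helix transcription factor, had 15.5, 14.8 and 24.0 CPM in high fat libraries and 30.7, 28.2 and 26.9 CPM in normal diet libraries. It fell by 0.66 on the log2 scale, at an edgeR adjusted p of 0.0496, with high fat library 3 nearest to the normal diet libraries.

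The locus in Jazf1, a zinc finger gene known for variants associated with type 2 diabetes in humans, was the longest of the set (intron 1 of 4, chr6:52947726-52999330). It had 6.58, 5.04 and 5.82 CPM in high fat libraries and 14.2, 8.10 and 7.11 CPM in normal diet libraries, a log2 fold change of -0.75 that did not pass (edgeR adjusted p = 0.082). The groups did not overlap, but normal diet library 1 stood well above the other normal diet libraries. Without that library the log2 fold change was -0.41, and with the acinar covariate it was -0.32. Of the alternatives, DESeq2 alone passed it (adjusted p = 0.024), the others giving adjusted p-values from 0.068 to 0.48. In Zfp800, a zinc finger gene, the locus in intron 2 of 6 (chr6:28212162-28214129) averaged 17.9 ± 1.83 CPM in high fat islets and 14.6 ± 0.811 CPM in normal diet islets (log2 fold change 0.29, edgeR adjusted p = 0.12), and the exons of the host differed by 0.26.

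Among transporter hosts, Slc35f4, a member of the SLC35 solute carrier family, held the locus with the largest rise (XLOC_011192, chr14:49965241-49966338, intron 1 of 7). It had 1.57, 2.04 and 2.1 CPM in high fat libraries, against 0.880, 0.684 and 0.337 CPM in normal diet libraries (log2 fold change 1.59, SE 0.318, edgeR adjusted p = 0.027). The exons of Slc35f4 rose too, with 1.87, 3.08 and 2.03 CPM in high fat libraries and 0.936, 0.821 and 0.842 CPM in normal diet libraries (log2 fold change 1.42, edgeR adjusted p = 0.019). The most abundant locus of all lay in intron 1 of 14 of Slco1a6 (XLOC_030343, chr6:142117058-142123348), which encodes an organic anion transporter. It had 88.1, 81.2 and 118 CPM in high fat libraries and 68.5, 78.2 and 72.4 CPM in normal diet libraries, without overlap but short of the threshold (log2 fold change 0.39, edgeR adjusted p = 0.093). Without high fat library 3, the highest of the 6, it was 0.22, and with the deposited scaled values it was 0.17. The exons of Slco1a6 rose by 0.70 (edgeR adjusted p = 0.014).

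The host locus named Slc22a30, of the organic anion transporter family, joins Slc22a29 and Slc22a30. Its new intronic locus (XLOC_018184, chr19:8350688-8362244) lay in intron 8 of 9 of a transcript that matched no reference transcript. It had 4.21, 3.62 and 5.02 CPM in high fat libraries and 7.54, 6.16 and 7.51 CPM in normal diet libraries. The locus fell by 0.72 on the log2 scale (SE 0.162, edgeR adjusted p = 0.033). The exons of the joined host averaged 1.55 ± 0.505 CPM in high fat islets and 0.953 ± 0.259 CPM in normal diet islets. Per kb the new intronic locus stood at 0.491 CPM per kb against 0.176 CPM per kb for those exons. The reads of Slc22a29 and Slc22a30 cannot be told apart in these host values.

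Among hosts without a protein product, the locus in Zmiz1os1, an antisense transcript of Zmiz1 (XLOC_011135, chr14:26188227-26199261, intron 2 of 3), had 1.81, 1.44 and 1.5 CPM in high fat libraries and 3.05, 2.86 and 2.47 CPM in normal diet libraries, and fell by 0.82 on the log2 scale (SE 0.167, edgeR adjusted p = 0.028). Its host did not pass (log2 fold change -0.50, edgeR adjusted p = 0.11). Whether counting used strand is not given, so reads of an antisense host and of its partner cannot be told apart. The locus XLOC_001694 (chr1:63174491-63185888) lay in intron 1 of 3 of a transcript matched to Ino80dos, an antisense transcript, within a host locus that the assembly joined with Eef1b2, a translation elongation factor gene. It had 1.54, 1.95 and 1.86 CPM in high fat libraries and 4.54, 2.62 and 3.27 CPM in normal diet libraries, and fell by 0.96 (SE 0.219, edgeR adjusted p = 0.034). The joined host rose by 0.57 (edgeR adjusted p = 0.019), with 374, 397 and 330 CPM in high fat libraries and 244, 243 and 255 CPM in normal diet libraries, a value in which the reads of Eef1b2 and Ino80dos cannot be told apart.

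In 6330411D24Rik, a processed transcript, the locus in intron 1 of 2 (XLOC_025955, chr4:142505936-142512804) averaged 12.9 ± 3.99 CPM in high fat islets and 11.4 ± 2.61 CPM in normal diet islets and did not pass (edgeR adjusted p = 0.66), while the exons of the host held 1 count over all 6 libraries. In Ntm, which encodes the cell adhesion protein neurotrimin, the locus in intron 1 of 7 (chr9:29598247-29609209) lay 161221 bases from the nearest exon and averaged 58.8 ± 8.03 CPM in high fat islets and 57.2 ± 4.19 CPM in normal diet islets, with overlapping libraries. Per kb it stood at 5.29 CPM per kb, against 1.03 CPM per kb for the Ntm exons.

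The remaining 3 loci past the threshold, named here after their values were seen, lay in Gm4117, Trim7 and Ccdc178. The locus in Gm4117, an antisense transcript, rose, with 0.371, 0.476 and 0.316 CPM in high fat libraries and 0.192, 0.182 and 0.196 CPM in normal diet libraries (log2 fold change 1.01, edgeR adjusted p = 0.043), while its host differed by -0.14 (edgeR adjusted p = 0.77). The locus in Trim7, a ubiquitin ligase gene, averaged 0.731 ± 0.119 CPM in high fat islets and 1.23 ± 0.0941 CPM in normal diet islets and fell by 0.74 on the log2 scale (edgeR adjusted p = 0.044). Of the exonic bases of Trim7, 92.9% are shared with another locus, so the count of that host is a small part of it. The locus in Ccdc178, a coiled-coil gene, averaged 3.42 ± 0.575 CPM in high fat islets and 5.76 ± 0.814 CPM in normal diet islets (log2 fold change -0.75, edgeR adjusted p = 0.034), and its host, with 56 counts in all, was not tested.

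The promoters of 3 of the 4 hosts whose exons and new intronic locus both passed in the same direction are shown because the pairs moved together (Zbtb7c is the fourth). They are the RefSeq sequences of build GRCm38.p6, 300 bases around the start of the gene on its own strand, with each CG dinucleotide in capitals, at chr2:26503773-26504072, chr16:34513978-34514277 and chr14:49525788-49526087, all on the minus strand.
Notch1: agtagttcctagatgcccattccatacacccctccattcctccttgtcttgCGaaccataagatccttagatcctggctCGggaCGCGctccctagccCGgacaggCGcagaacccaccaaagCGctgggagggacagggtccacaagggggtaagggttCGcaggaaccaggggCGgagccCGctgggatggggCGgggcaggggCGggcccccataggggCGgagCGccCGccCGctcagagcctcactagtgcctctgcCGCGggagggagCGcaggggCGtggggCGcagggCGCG
Kalrn: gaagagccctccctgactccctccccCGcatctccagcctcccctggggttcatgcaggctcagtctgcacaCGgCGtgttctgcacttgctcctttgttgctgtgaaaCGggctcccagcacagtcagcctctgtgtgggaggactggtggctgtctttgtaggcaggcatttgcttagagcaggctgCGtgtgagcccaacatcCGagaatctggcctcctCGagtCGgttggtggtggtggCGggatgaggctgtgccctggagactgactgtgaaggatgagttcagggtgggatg
Slc35f4: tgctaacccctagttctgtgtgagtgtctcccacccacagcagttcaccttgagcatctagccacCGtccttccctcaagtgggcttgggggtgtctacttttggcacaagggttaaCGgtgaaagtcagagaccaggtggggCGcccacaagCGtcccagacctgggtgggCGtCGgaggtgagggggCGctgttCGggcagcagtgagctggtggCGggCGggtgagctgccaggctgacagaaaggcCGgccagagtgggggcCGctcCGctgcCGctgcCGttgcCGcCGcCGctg
They hold 23, 9 and 18 CG in that order, where the median of 32851 promoters of the same length is 7. Fewer CG than in Notch1, Kalrn and Slc35f4 are held by 78.5%, 54.2% and 70.3% of those promoters. Neither TATAAA nor CCAAT, read on both strands, is in any of the 3, and 13.6% and 37.4% of all promoters hold them. These are descriptions of the letters in the window only.

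The second comparison asked whether hosts differ between the diets in the way their new intronic loci do. Of 80 hosts tested 7 rose and 4 fell in high fat islets (8.75% and 5%, where 5.95% and 4.86% of all loci did), and 51 had a log2 fold change below 0. The hosts that rose were Slc22a2, Slc35f4, Slco1a6, Tacc2, the joined Eef1b2 host, Cntn1 and Ppp2r5c, and those that fell were Reln, Zbtb7c, Notch1 and Kalrn. Of the 13 loci that fell, 3 lay in hosts that fell, 2 in hosts that rose, 7 in hosts that did not pass and 1 in a host not tested. The 2 in hosts that rose were those in Tacc2 and in the joined Eef1b2 host. In the joined host the intron is that of Ino80dos, whose own change is not known. The log2 fold changes of locus and host had a Pearson's r of 0.11 and a Spearman's rank correlation of 0.074 over 101 pairs that share the same 6 libraries. DESeq2 called 18 hosts, 8 higher and 10 lower, and the deposited scaled values with limma called 2 higher and 8 lower. The edgeR calls without high fat library 3 were 10 higher and 11 lower. Without normal diet library 1, 2 or 3 edgeR called 0 hosts (27, 28 and 24 at an unadjusted p under 0.05), as it did with the acinar covariate (18 at an unadjusted p under 0.05), and without high fat library 1, 2 or 3 it called 3, 2 and 21.

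Whether a locus moved differently from its host was tested on the difference of log2 CPM within each library, by limma over all 1731 pairs of a nested locus of any class and its host. Of 101 new intronic pairs 4 fell relative to the host and 2 rose, where 4.39% of all nested pairs fell and 0.52% rose. The 4 that fell were the locus in Tacc2, at -2.23 (SE 0.306), the locus in the joined Eef1b2 host, at -1.49 (SE 0.267), and the loci XLOC_007811 and XLOC_007810 in Klhl29, at -1.36 (SE 0.255) and -1.17 (SE 0.240). These Klhl29 loci lie 141 bases apart in the same intron and are set against the same host values. They are therefore not independent results. The 2 that rose, named after their values were seen, lay in Reln, a secreted glycoprotein gene, at 2.15 (SE 0.458), and in Galntl6, at 1.69 (SE 0.362), and both loci averaged under 0.5 CPM. The locus in Reln had 0.230, 0.311 and 0.239 CPM in high fat libraries and 0.168, 0.0547 and 0.133 CPM in normal diet libraries, while the exons of Reln fell by 0.96. The locus in Galntl6 (XLOC_035230) itself differed by 0.29 (edgeR adjusted p = 0.42). Its host, with 123 counts in all, differed by -1.52 (edgeR adjusted p = 0.053). All 6 had a limma adjusted p of 0.049, and none passed without any 1 of the 6 libraries, where the lowest adjusted p-values among new intronic pairs ran from 0.054 to 0.13 (17 to 27 at an unadjusted p under 0.05), nor with a prior count of 0.5 (0.056), no filter (0.096) or the acinar covariate (0.22).

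Relative to the host, 67 of the 101 new intronic loci were below 0 (66.3%), against 75.5% of all nested pairs. The median was -0.30 in the new intronic pairs and -0.42 in all nested pairs, so that both sets lay below their hosts' change.

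**Figure D3:**
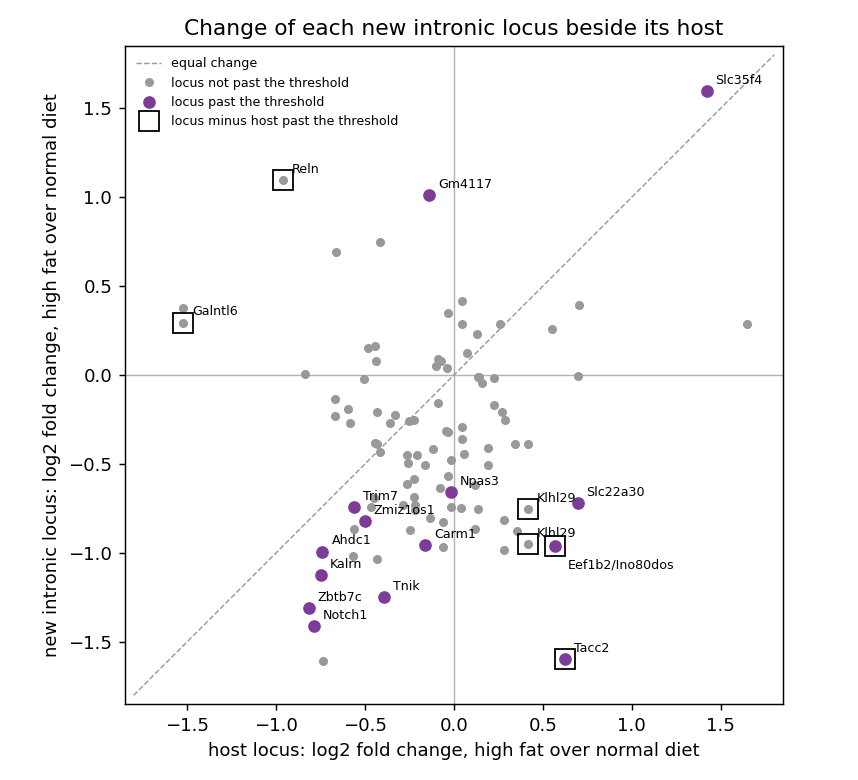
Log2 fold change, high fat over normal diet, of each new intronic locus (vertical) against that of its host (horizontal) for the 101 pairs in which both were tested, with loci past the threshold filled in purple and pairs whose difference passed in squares. Notch1, Kalrn and Zbtb7c lie with their hosts below 0 and Slc35f4 above 0, while Tacc2 and the joined Eef1b2 host lie at the lower right, with a host that rose and a locus that fell.

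In the 5 hosts with 3 new intronic loci, no locus passed the threshold on its own. The 3 in intron 3 of 11 of Klhl29, a kelch family gene, had log2 fold changes of -0.39, -0.75 and -0.95, while the exons of Klhl29 differed by 0.42 (edgeR adjusted p = 0.15). The largest of these differences belonged to XLOC_007811 (chr12:5135437-5139796), with 0.274, 0.155 and 0.208 CPM in high fat libraries and 0.448, 0.365 and 0.428 CPM in normal diet libraries. In Pde4d the abundant locus in intron 1 of 16 (XLOC_009751, chr13:109460773-109461613) had 57.9, 58.0 and 48.2 CPM in high fat libraries and 41.9, 43.9 and 43.1 CPM in normal diet libraries, without overlap and just short of the threshold (log2 fold change 0.35, edgeR adjusted p = 0.052). The other loci of Pde4d, in introns of 707703 and 479455 bp, had log2 fold changes of -0.32 and -0.57, with normal diet library 1 at 1.84 and 1.5 CPM as the highest of the 6 in each. The Pde4d exons differed by -0.03 (edgeR adjusted p = 0.85).

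In Pced1b the 3 loci had log2 fold changes of -0.25, -0.58 and -0.68, and in Nol4l, whose product is related to nucleolar protein 4, -0.39, -1.04 and -0.21. In Dclk1, which encodes a doublecortin-like kinase of microtubules, they were 0.29, 0.42 and -0.36, although the 3 lie within 10 kb of each other in intron 3 of 17. Over the 19 hosts with several loci tested, the loci of 14 hosts had the same sign, below 0 in 12 of them, and the median range within a host was 0.25 on the log2 scale. Of all new intronic loci tested 75.2% were below 0, and whether signs within a host agree beyond that lean was not tested. Loci of the same host share their source and are not independent. Several of these values moved with the library left out. Leaving out 1 library gave -0.39 to -0.12 in the first Pced1b locus (smallest without high fat library 2), -0.44 to -0.012 in the third Nol4l locus (smallest without normal diet library 3), -0.64 to -0.17 in the first Klhl29 locus (smallest without high fat library 3) and 0.10 to 0.47 in the first Dclk1 locus (smallest without normal diet library 1). In Pde4d it gave -0.54 to 0.14 for the locus in the longer intron and -0.84 to -0.15 for the other, in both cases with normal diet library 1 as the library left out at the upper end.

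The lean of the set was uneven across libraries. Relative to the mean of the 6 libraries, the median new intronic locus stood at -0.10, -0.31 and -0.096 log2 units in high fat libraries 1, 2 and 3, and at 0.35, 0.088 and 0.10 in normal diet libraries 1, 2 and 3. High fat library 2 was therefore the farthest below and normal diet library 1 the farthest above, and these are also the libraries with the highest and the lowest summed acinar level. The remaining libraries did not keep that order. High fat library 1, at 4795 CPM of acinar markers, had a lower median than normal diet libraries 2 and 3, at 6287 and 5498 CPM. The part of acinar RNA in the result was not tested beyond the covariate. The hosts' own medians stayed between -0.063 and 0.060, and those of all loci between -0.011 and 0.020. Normal diet library 1 was the highest of the 6 in 52 of 109 new intronic loci (47.7%), against 25.4% of all loci. In that library the new intronic pairs stood 0.31 above the mean of the libraries in their difference from the host, and all nested pairs stood 0.40 above it. In high fat libraries 1, 2 and 3 the new intronic pairs stood at -0.12, -0.24 and -0.0040, and all nested pairs at -0.17, -0.25 and -0.12. In normal diet libraries 2 and 3 the values were 0.044 and 0.075, and 0.091 and 0.11. The signs by diet were thus shared with nested loci of any class. Without normal diet library 1 the median log2 fold change of the set was -0.30, and with the acinar covariate it was -0.22.

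**Figure D4:**
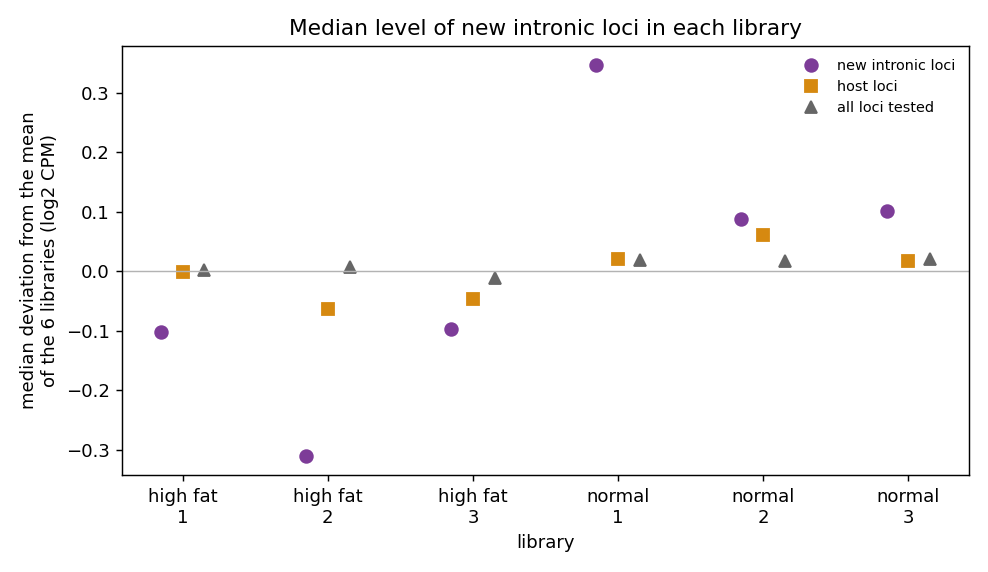
Median deviation of log2 CPM from the mean of the 6 libraries (vertical) in each library (horizontal), for the 109 new intronic loci, their 80 hosts and all 23983 loci tested. The new intronic loci are below 0 in all 3 high fat libraries and above 0 in all 3 normal diet libraries, farthest in normal diet library 1, while hosts and all loci stay near 0.

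As a share of each library's counted reads, the 110 loci together held 0.0326%, 0.0298% and 0.0385% in high fat libraries and 0.0422%, 0.0376% and 0.0390% in normal diet libraries. The groups overlapped, at 0.0385% in high fat library 3 and 0.0376% in normal diet library 2, and the difference of -0.00596 percentage points gave p = 0.2 in an exact two-sided permutation test, where 3 libraries against 3 can give no p below 0.1. Over TMM effective library sizes the difference was -0.000872 percentage points (exact p = 0.8). The 10 most abundant loci held most of that share and differed by -0.00209 percentage points (exact p = 0.4). The other 100 held 0.00764%, 0.00700% and 0.00848% in high fat libraries and 0.0135%, 0.0104% and 0.0109% in normal diet libraries, without overlap and at the smallest p the test allows, 0.1.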

How the data were processed

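Total RNA of mouse islets was sequenced from both ends after removal of ribosomal RNA, with a stranded kit, per the labels' protocols. The submitters' processing notes name, for build mm9, the tools Cufflinks 2.1.1, TopHat2 2.0.8, edgeR and HTSeq 0.5.4p3. Their settings, and whether counting used strand, are not given in the sources used here. The authors deposited raw counts for 39470 loci, scaled values (a signal that is each count times 1 constant per library, whole within 0.001 reads for 100% of values) and the assembled transcripts in mm9.

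Host names are an inference: exon and intron lengths were matched to GENCODE genes of another build, with no conversion of coordinates. Of 86 hosts, 83 were named by a whole chain and 3 by the rule for 2 exons, with a 40-base end tolerance, and 6 host loci join several genes. In 14 cases the transcript around a new intronic locus matched no reference transcript.

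Counts were tested in R 4.3.3 with edgeR 4.0.16 (filterByExpr, TMM, two-sided quasi-likelihood test with diet as the only term, Benjamini-Hochberg over 23983 loci, threshold 0.05). Each SE was derived from the test's F statistic. Locus-minus-host differences of log2 CPM (prior count 2) were tested with limma 3.58.1, and DESeq2 1.42.0 was an alternative. The main edgeR fit and the main limma fit of pairs were also run on simulated counts. Named were the 10 most abundant loci, the 8 largest falls and the rises past the threshold at 0.5 CPM or more without overlap, the pairs past the threshold at that level, and the 5 hosts with most loci. The rule also asked for loci of several exons or on the opposite strand, of which there were none. An item that the rule takes is not reported here. The members, lists and rules were chosen with earlier results of these data known. All 548 loci whose exonic bases are wholly shared with other loci have a count of 0, and more than 20% of bases are shared in 8 hosts.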

Additional observations from a re-analysis of the deposited data

How the results depend on the processing

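Against 15 new intronic loci past the threshold, DESeq2 called 22, the deposited scaled values with limma 20, the acinar covariate 0 and a replicate block 1 (27 and 40 at an unadjusted p under 0.05); leaving out 1 library gave 0 to 21. The same settings called 4114, 2359, 0 and 74 of all loci, against 2591, and 0 to 5035 without 1 library. DESeq2's size factors, no filter and member minimums of 30 or 120 counts each gave 15. With DESeq2's size factors these were 3 higher and 12 lower, and with no filter 1 higher and 14 lower. In each of those 2 settings 14 were shared with the main fit. The median log2 fold change of -0.39 was -0.22 with the acinar covariate and -0.56 with the scaled values, and -0.47 to -0.30 without 1 library. Against 11 hosts called, DESeq2 called 18, the acinar covariate and the replicate block 0 each (18 and 30 at an unadjusted p under 0.05), and leaving out 1 library 0 to 21. Against 6 locus-minus-host pairs, 0 were called with the acinar covariate, the scaled values, no filter, a prior count of 0.5, the replicate block or any library left out (17 to 27 at an unadjusted p under 0.05 in limma). The difference in share of counts, -0.00596 percentage points, was -0.000872 over TMM effective library sizes (exact permutation p = 0.8), and -0.00837 to -0.00406 without 1 library. The cause of these changes was not tested. Same-numbered libraries of the 2 diets had correlations of -0.075, 0.075 and -0.014, and differently numbered ones ran from -0.16 to 0.15. The labels do not say that the numbers pair samples, and these values cannot settle it. The replicate block result is given only here. It kept the locus in Tacc2.

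Signs turned for values that had not passed. With the acinar covariate the loci were at 0.12 and 0.062 in Pde4d (XLOC_009752 and XLOC_009753; 0.065 and 0.030 minus host) and at -0.21 in 6330411D24Rik, and minus host at -0.051 in Zfp800, 0.19 in Ahdc1 and 0.25 in Pced1b (XLOC_012984). With the scaled values the loci were at -0.17 in Ntm and -0.048 in 6330411D24Rik. Leaving out 1 library gave -0.043 to 0.15 in Ntm, -0.045 to 0.40 in 6330411D24Rik and -0.54 to 0.14 in XLOC_009752. Minus host it gave -0.053 to 0.15 in Ntm, -0.032 to 0.079 in Zfp800, -0.089 to 0.51 in Slc35f4, -0.52 to 0.17 in Ahdc1, -0.35 to 0.14 in XLOC_009752, -0.15 to 0.17 in XLOC_012984, -0.13 to 0.23 in Nol4l (XLOC_021574) and -0.83 to 0.90 in Trim7. Of the other values of named loci, 322 fold changes and 371 differences from the host kept their direction and their side of the threshold, 106 and 66 kept their direction but no longer passed, and 6 fold changes newly passed. The share of counts was not recomputed with limma. The 3 libraries per diet and a median level of 0.640 CPM limit the precision of each value.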
